A study of Homo sapiens with 9 samples.

Results

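RBFOX1 and IL1RAPL1 are genes in which reads of the HCT116 colorectal carcinoma line nearly stopped over a long stretch, while reads of the RPE1 line went on. They are 2 genes, taken as the hg19 spans chr16:6069001-7763000 and chrX:28606001-29974000, each with 500 kb on both sides. These intervals held 2694 and 2368 bins of 1 kb, out of 3137207 bins in the tables. The reads of the 3 libraries of a set were summed in each bin, and HCT116 was set against each RPE1 set to place the edges of the near-empty stretches. The genes were chosen by these summed HCT116 and RPE1 reads, so the size and place of the drop are given as a description, with no test. The tables hold reads only, so a stretch is called near-empty here, and whether its DNA was lost was not tested.

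Unsynchronised cells were labelled with EdU, a thymidine analogue built into DNA as it is copied, and were sorted into an early, a mid and a late fraction of S phase; the labelled DNA was pulled down and sequenced. RPE1, a telomerase-immortalised line from human retinal pigment epithelium, gave 2 sets of 3 libraries, and HCT116 gave 1 set of 3, with no other treatment named for either line. The HCT116 mid and late S samples are labelled replicate 2 and the early S sample carries no number; all 3 are tied to 1 table and were used as 1 set, and sums and shares assume that they belong together. The labels do not tie the RPE1 sets to different cultures, so their spread (n = 2) may be technical, and HCT116 values carry counting error only. The deposited columns have no names, so libraries are called A, B and C by position, and a letter stands for no fraction. Setting a letter of HCT116 against the same letter of RPE1 assumes that the columns of all 3 sets follow the same order. The labels do not state this order, and it was not tested.

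RBFOX1 encodes an RNA-binding protein that regulates alternative splicing in neurons, heart and muscle. IL1RAPL1, on the X chromosome, encodes a membrane protein of the interleukin-1 receptor family that acts at synapses, and its loss is a known cause of X-linked intellectual disability. Both belong to the very large genes of the human genome. Such genes tend to be copied late in S phase, and some of them lie at common fragile sites, where breaks and internal deletions arise when replication is slowed. In a replication timing experiment of this kind, the spread of a locus over the sorted fractions tells when it is copied. Its summed reads move with the number of copies present. Libraries of unequal depth were summed unscaled here, so the sums also depend on how a locus is spread over the libraries.

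The first listed start region of each gene is shown to identify the locus. The sequences are from RefSeq on GRCh38.p14, run over the 250 bases before the first listed start on the plus strand, and have CG pairs in capitals. RBFOX1 had 5 listed starts and IL1RAPL1 had 1, and both genes were matched by symbol.
RBFOX1, chr16:6018774-6019023: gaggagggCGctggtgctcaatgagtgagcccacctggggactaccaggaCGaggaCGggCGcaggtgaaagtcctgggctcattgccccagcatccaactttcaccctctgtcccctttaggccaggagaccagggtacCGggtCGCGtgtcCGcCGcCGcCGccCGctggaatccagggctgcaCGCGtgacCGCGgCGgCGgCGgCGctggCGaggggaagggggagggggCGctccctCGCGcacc
IL1RAPL1, chrX:28587196-28587445: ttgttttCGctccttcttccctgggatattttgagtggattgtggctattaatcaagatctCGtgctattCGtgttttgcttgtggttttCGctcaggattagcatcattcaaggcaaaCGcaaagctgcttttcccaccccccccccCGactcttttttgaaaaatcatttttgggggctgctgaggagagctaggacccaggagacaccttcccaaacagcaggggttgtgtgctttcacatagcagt
The RBFOX1 sequence held 24 CG pairs, a number reached by 23.7% of 35116 listed promoters. That of IL1RAPL1 held 6, reached by 61.9%. The later listed RBFOX1 starts, not shown, held 24, 36, 3 and 4 pairs. RBFOX1 thus had more CG pairs than IL1RAPL1 at some starts and fewer at others. The median promoter had 11. These positions are on another build than the read tables and were not placed against the stretches, so neither sequence is tied to a measured level. Exons and introns were not placed either, since no hg19 annotation was used here.

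The 3 HCT116 libraries held 27519669 reads in all, against 35891538 in RPE1 set 1 and 55421713 in RPE1 set 2, and single libraries held from 6170299 to 22930078. An average covered autosomal kb had 9.69 HCT116 reads, 12.3 reads of RPE1 set 1 and 19.3 of RPE1 set 2. On chromosome 16 the HCT116 reads relative to the autosomes were 0.978 times those of RPE1 set 1 and 1.00 times those of set 2. On X they were 0.495 and 0.632 times. Levels are therefore given relative to the surroundings of each gene, where 1 is the median ratio of HCT116 to RPE1 outside the near-empty runs. Intervals in brackets are 95% intervals for counting error.

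In RBFOX1 the HCT116 reads nearly stopped from chr16:6222001 to 6938000, over 716 kb or 42.3% of the gene. The stretch began 153 kb after the gene's start and ended 825 kb before its end, so both ends of the gene kept reads. HCT116 had 641 reads in it, where RPE1 set 1 had 12465 and RPE1 set 2 had 11899. The HCT116 level was 0.0878 [0.0810 to 0.0949] of the surroundings against both RPE1 sets, 0.0875 against set 1 and 0.0891 against set 2. The length was 713 kb against set 1 and 716 kb against set 2, with a mean of 714.5 ± 2.12 kb (SD, n = 2).

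The left edge of the RBFOX1 stretch was sharp. In the 10 kb before it HCT116 had 66 reads and in the 10 kb after it 14, whereas RPE1 set 1 had 165 and 164 and RPE1 set 2 had 162 and 187. No other 1 kb bin lay within 3 nats of log likelihood of this edge. On the right HCT116 went from 13 reads in the last 10 kb of the stretch to 51 in the next 10 kb, with 160 and 175 in RPE1 set 1 and 156 and 174 in set 2. Ends from 6935000 to 6938000 were about as well supported under the main settings, a span of 3 kb. Other settings put the right edge beyond this span. It lay at 6956000 with the near-empty level set to 0.2 of the surroundings, and at 6939000 with bins of 5 kb. Inside the stretch a single place of 2 kb, 6273001 to 6275000, stood out with 19 HCT116 reads (30 and 46 in the RPE1 sets), and the runs on its sides were joined across it.

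In IL1RAPL1 the near-empty stretch ran from chrX:29541001 to 29958000, over 417 kb or 30.5% of the gene. It lay at the far end of the gene, 935 kb after the start and only 16 kb before the end. HCT116 had 378 reads in it, against 4785 in RPE1 set 1 and 6766 in RPE1 set 2. Its level was 0.186 [0.167 to 0.206] of the surroundings against both sets, 0.224 against set 1 and 0.169 against set 2 (mean 0.196 ± 0.0386, SD, n = 2). Measured against all autosomes instead of the X surroundings, the level was 0.107.

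This stretch was made of 3 runs of 59, 46 and 306 kb. They were parted by 29600001 to 29602000, with 21 HCT116 reads and 21 and 32 in the RPE1 sets, and by 29648001 to 29652000, with 22 reads and 54 and 98. Its outer edges were sharp. Before the left edge HCT116 had 45 reads in 10 kb and after it 3, while RPE1 went from 116 to 139 and from 144 to 164. At the right edge HCT116 went from 2 reads to 34, with 117 and 127 in RPE1 set 1 and 138 and 149 in set 2. The left part depended on the reference and on the settings. Against RPE1 set 1 alone, 14 kb from 29620001 to 29634000 with 36 HCT116 reads split the stretch, and its longest piece was 324 kb from 29634001. Against set 2 alone it was 417 kb. Against both sets, with levels of 0.5 and 2 added to the possible states, the same 14 kb had a level of 0.488. The search over all autosomes and X, also against both sets, split the stretch there into runs of 79 and 324 kb.

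In steps of 10 kb, levels inside and outside the stretch were apart in RBFOX1 and overlapped in IL1RAPL1. The steps were grouped by the near-empty calls made from these same reads. Reduced or raised parts next to the stretches were left out, so a gap between the groups is a description and no test. The 70 steps within the RBFOX1 stretch held 0 to 31 HCT116 reads with a median of 7.0, against 48 to 150 with a median of 98 in 176 steps outside it and its reduced neighbour. RPE1 set 1 had 128 to 270 reads in the same 70 steps and RPE1 set 2 had 112 to 312. In levels, the inner steps reached at most 0.318 against set 1 and 0.254 against set 2. The outer steps began at 0.527 and 0.555, so the groups of steps did not overlap.
The 41 steps within the IL1RAPL1 stretch held 1 to 28 HCT116 reads with a median of 9.0, against 25 to 122 with a median of 49.0 in 178 outer steps. RPE1 set 1 had 86 to 148 reads in the 41 steps and RPE1 set 2 had 132 to 211. The inner levels reached 0.661 against set 1 and 0.467 against set 2, while outer levels began at 0.498 and 0.450. These groups of steps overlapped.

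**Figure D1:**
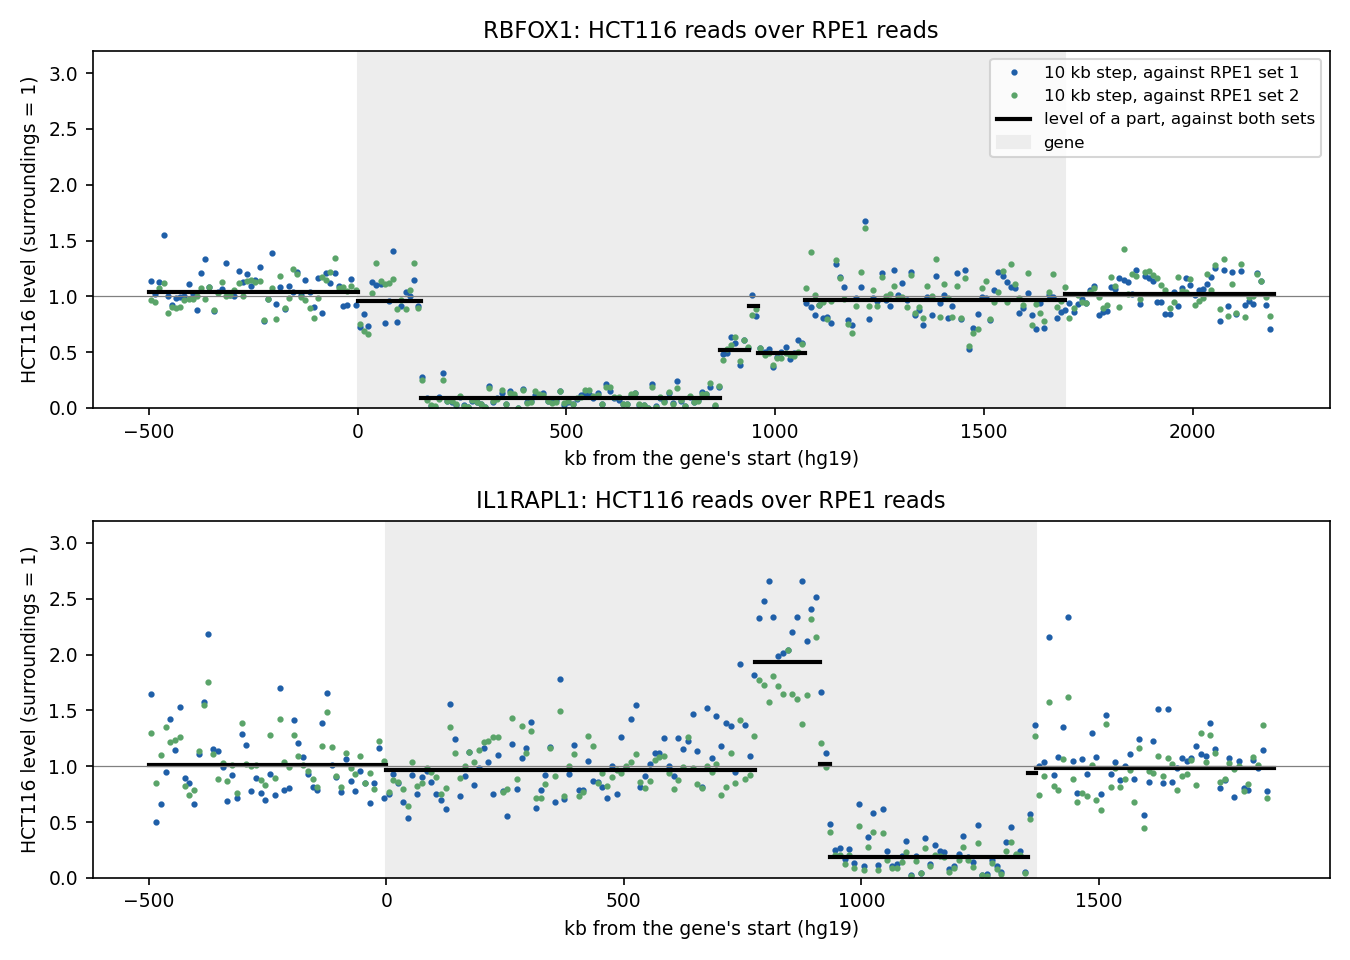
HCT116 level relative to the surroundings of each gene (y axis, surroundings = 1) by distance from the gene's start in kb (x axis). Each point is a step of 10 kb against RPE1 set 1 (blue) or set 2 (green), bars give the level of each part against both sets, and the gene is shaded. The points of RBFOX1 lie at 0.0878 on the whole over 716 kb and near 0.5 beyond it, and those of IL1RAPL1 rise to 1.93 before they fall to 0.186.

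**Figure D2:**
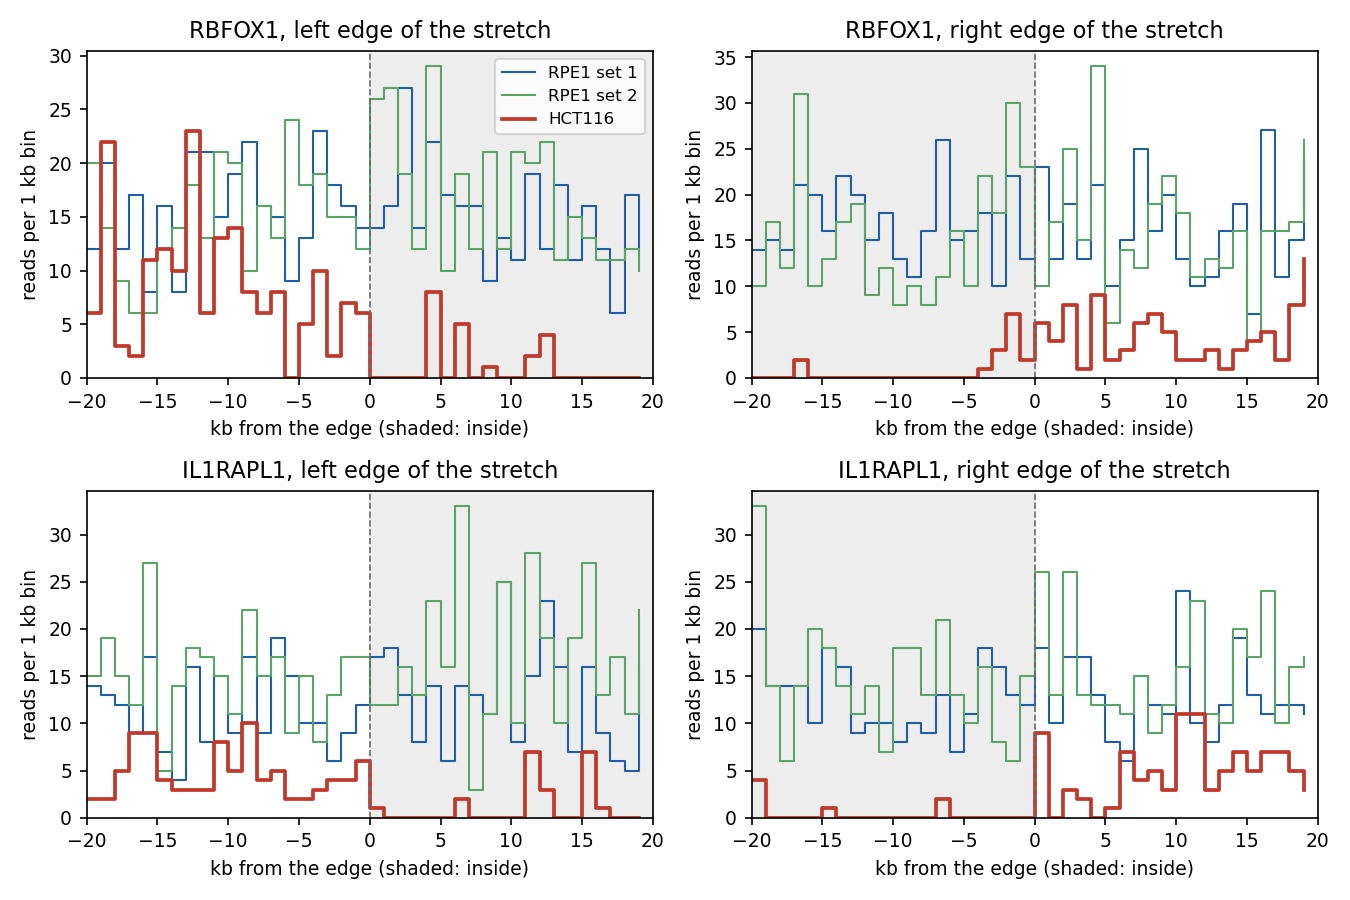
Reads in each 1 kb bin (y axis) by distance from an edge of a near-empty stretch in kb (x axis), with the inside shaded, for HCT116 (red), RPE1 set 1 (blue) and RPE1 set 2 (green). HCT116 falls from 66 to 14 reads over 10 kb at the left RBFOX1 edge and from 45 to 3 at the left IL1RAPL1 edge, while RPE1 goes on at the same density.

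RBFOX1 did not return to its full level at once. Directly beyond the stretch, 69 kb from 6938001 to 7007000 had 372 HCT116 reads, against 1223 in RPE1 set 1 and 1174 in set 2, which is a level of 0.518 [0.463 to 0.578]. Then 21 kb from 7007001 to 7028000 had 204 reads and a level of 0.914 [0.779 to 1.07]. A further 113 kb from 7028001 to 7141000 had 588 HCT116 reads, against 1989 and 2020, and a level of 0.489 [0.448 to 0.534]. The remaining 622 kb of the gene lay at 0.967, and the 153 kb before the stretch at 0.959. The flanks had 1.04 on the left and 1.02 on the right.

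Both reduced places were found by adding levels of 0.5 and 2 to the possible states, a choice made after the values were seen. With these states the near-empty run ended at 6935000. The second reduced place included 8 kb from 7063001 to 7071000 that was called near-empty on its own. Runs at this level were also found outside RBFOX1, since 0.396% of all covered autosomal and X bins lay in such runs of at least 20 kb. Of 103 runs, 28 were at least 113 kb long.

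The reduced places had fewer reads in each library, though unequally. Per kb, the first had 0.585 [0.525 to 0.649] times the HCT116 reads of the remaining 622 kb, with 0.763 in library A, 0.668 in B and 0.472 in C. The second had 0.564 [0.517 to 0.614] times, with 0.687, 0.629 and 0.481. In RPE1 the same ratios over all reads were 1.08 and 1.10 for the first place and 1.08 and 1.16 for the second, in sets 1 and 2. Library C, which held the most reads of this gene, thus showed the lowest ratio in both places. Its intervals were [0.398 to 0.556] in the first and [0.422 to 0.548] in the second. Those of B were [0.558 to 0.794] and [0.544 to 0.726], so B and C nearly touched in the first place and overlapped in the second.

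IL1RAPL1 had a raised place before its stretch. From 29383001 to 29519000, over 136 kb, HCT116 had 1329 reads against 1626 in RPE1 set 1 and 2287 in set 2. The level was 1.93 [1.81 to 2.05] against both sets, 2.32 against set 1 and 1.76 against set 2. The 777 kb of the gene before it lay at 0.964, and the 22 kb between it and the stretch had 104 reads and a level of 1.02 [0.819 to 1.26]. Beyond the stretch, the last 16 kb of the gene had 76 reads and a level of 0.941, and the flanks lay at 1.01 and 0.988. Against set 1 alone the raised place ran from 29351001 to 29521000, over 170 kb.

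The rise was seen in all 3 HCT116 libraries. Per kb it was 1.90 [1.79 to 2.02] times the reads of the earlier part of the gene, with 1.54 in library A, 2.31 in B and 1.38 in C. In RPE1 the overall ratio was 0.831 in set 1 and 1.06 in set 2. RPE1 had ratios of 1.42 and 1.43 in library B, and of 0.679 and 0.766 in C, so the libraries shifted in the same order there without a rise of this size. Raised runs of at least 20 kb took up 0.378% of covered autosomal and X bins, and 24 of 129 were at least 136 kb long.

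The reads that were left inside the stretches were about as dense in IL1RAPL1 as in RBFOX1, although the genes around them were not. HCT116 kept 0.895 reads per kb in the RBFOX1 stretch and 0.906 in that of IL1RAPL1, a ratio of 0.988 [0.868 to 1.12]. The part of RBFOX1 before its stretch had 9.52 reads per kb and the part of IL1RAPL1 before its raised place 5.14. Each library by itself gave values within counting error of each other. Library A had 0.331 and 0.333 reads per kb, library B 0.409 and 0.400, and library C 0.155 and 0.173. Ratios were 0.993 [0.802 to 1.23], 1.02 [0.842 to 1.24] and 0.898 [0.661 to 1.23].

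The library make-up of these left-over reads differed most from the surrounding gene in RBFOX1. There the stretch was set against the gene before it and the part of the gene after the reduced places. It had 0.210 times their reads per kb in library A, 0.134 times in B and 0.0334 times in C. In IL1RAPL1 the ratios were 0.217, 0.153 and 0.176, taken only against the gene before the raised place, so the 2 references are not alike. Before scaling, libraries A, B and C held 37.0, 45.7 and 17.3% of the left-over reads in RBFOX1, and 36.8, 44.2 and 19.0% in IL1RAPL1. Over all autosomes they held 31.5, 44.8 and 23.7% of HCT116 reads. The Wilson intervals of the library C share were 14.6 to 20.4% and 15.4 to 23.3%, beside the autosomal 23.7%. They treat reads as independent, although bins with 5 or more reads held 39.2 and 58.7% of the left-over reads. Within IL1RAPL1 the split was not even. The 79 kb from 29541001 to 29620000 held 23, 23 and 24 reads of A, B and C, and the 324 kb from 29634001 held 99, 129 and 44.

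Left-over reads were spread along both stretches. In 4 equal pieces from left to right there were 0.788, 0.894, 0.955 and 0.944 reads per kb in RBFOX1 and 1.05, 0.942, 0.875 and 0.760 in IL1RAPL1. Single bins were unevenly filled. In RBFOX1 477 of 716 bins (66.6%) had no HCT116 read, and in IL1RAPL1 300 of 417 (71.9%), while no bin lacked reads in either RPE1 set. At the other end, 37 bins with 5 or more reads, at 35 separate places, held 251 reads or 39.2% of the total in RBFOX1. In IL1RAPL1 33 such bins at 28 places held 222 reads or 58.7%.

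These fuller bins drew on more than 1 library. In RBFOX1 26 of the 37 had reads of all 3 libraries and 11 of 2, and in IL1RAPL1 26 of 33 and 7. No bin had more than 12 HCT116 reads in RBFOX1 or 15 in IL1RAPL1. RPE1 was also higher in them, with a median of 47 reads over both sets against 32 in the other bins of the RBFOX1 stretch, and 42 against 25 in IL1RAPL1. Leaving out the bins with the most reads over all sets removed 2 bins in RBFOX1 and 0 in IL1RAPL1, and the HCT116 totals stayed at 641 and 378. The origin of the left-over reads was not tested.

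**Figure D3:**
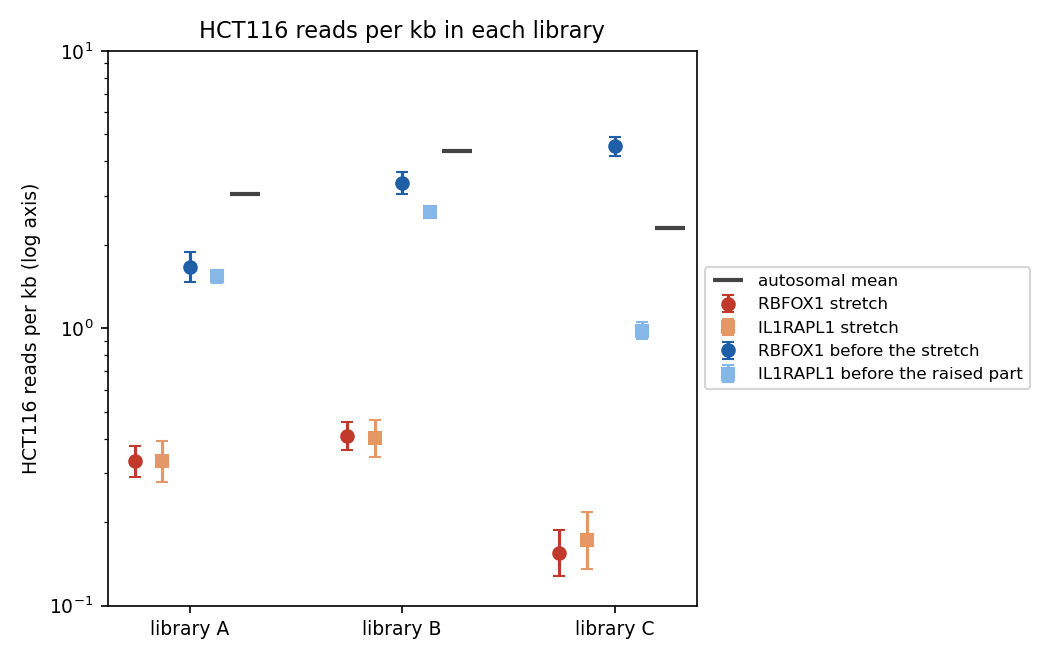
HCT116 reads per kb (y axis, log scale) in libraries A, B and C (x axis) for both near-empty stretches, for the gene before each, and for the autosomal mean; bars are exact 95% Poisson intervals. The stretches lie together in each library, at 0.331 and 0.333 in A and at 0.155 and 0.173 in C, whereas the genes before them differ most in C, at 4.52 for RBFOX1 and 0.981 for IL1RAPL1.

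The share of each library shows how a place was spread over the sorted fractions, once libraries are scaled to a common autosomal total. Errors of shares are counting standard errors. RPE1 varied by a few points across the RBFOX1 stretch: library C held 66.0% ± 1.06, 64.4% ± 0.490 and 68.5% ± 0.538 of set 1 before, in and after it (the last being the final 622 kb). In set 2 it held 58.9% ± 0.987, 58.2% ± 0.451 and 60.9% ± 0.495. The stretch that was near-empty in HCT116 was thus led by the same library as its sides in RPE1.

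HCT116 was close to RPE1 before the RBFOX1 stretch and in the last 622 kb of the gene, and apart from it in the flanks. Before the stretch its library C share was 60.0% ± 1.27, and in the last 622 kb it was 62.8% ± 0.622, between the RPE1 sets in both. In the left flank it was 40.5% ± 0.736, against 65.6% ± 0.595 and 57.7% ± 0.534 in RPE1. In the right flank it was 48.6% ± 0.745, against 66.0% ± 0.604 and 59.1% ± 0.552. Library B was higher there, with 39.7% in the left flank against 16.5 and 26.8%, and 34.0% in the right against 17.6 and 25.1%. Library A moved little, for instance 19.8% in the left flank against 17.9 and 15.6%.

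The change along the flanks was gradual in HCT116. In windows of 50 kb starting at 5600001, library C held 19.7, 29.9, 30.6, 37.7, 42.8, 48.6, 49.1, 51.5 and 52.5%, so it rose in every step towards the gene. Over the same windows RPE1 set 1 stayed between 62.6 and 68.9%. Past the gene HCT116 fell from 61.0% at 7750001 to 35.2% at 8200001, where RPE1 set 1 had 72.1 and 61.7%. The highest HCT116 window of the interval, with 66.9%, lay at 7650001, close to the gene's end.

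In its library shares HCT116 differed from RPE1 along the whole of IL1RAPL1. Such a shift was common on X, where 50.6% of windows had library C at least 10 points below both RPE1 sets. In the left flank library C held 21.1% ± 0.920 of HCT116 reads, against 65.3% ± 0.636 and 56.2% ± 0.568 in RPE1. In the 777 kb before the raised place it held 27.8% ± 0.811, against 60.8% ± 0.527 and 52.7% ± 0.452, and in the right flank 18.3% ± 0.892, against 57.1% ± 0.664 and 46.2% ± 0.553. Library A made up much of the difference, with 36.3, 32.9 and 35.4% in HCT116 at these places and 15.6 to 19.5% in RPE1. Library B had 42.6, 39.3 and 46.2% in HCT116, against 19.2 to 34.3%.

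RPE1 was itself not uniform across IL1RAPL1. Among windows outside the stretch, its library C share was highest, at 71.4% in set 1, in the window at 28800001, and lowest, at 42.2%, in that at 29350001. Set 2 had its highest such window at 28250001, with 61.0%, and its lowest at 29400001, with 37.5%. In the raised place C held 45.2% ± 1.30 and 38.6% ± 1.04 of RPE1 and 21.3% ± 1.34 of HCT116, which had 50.5% ± 1.42 in library B. In the stretch C held 48.1% ± 0.773 and 39.9% ± 0.611 of RPE1, and B 31.0% and 38.7%. Lower C shares in RPE1 thus began before the left edge of the HCT116 stretch and went on across it.

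The near-empty stretches had HCT116 shares unlike those of their gene in RBFOX1. Library A held 40.2% ± 2.00, B 34.9% ± 1.81 and C 24.9% ± 1.96 there, and 39.5% ± 2.60, 33.3% ± 2.31 and 27.1% ± 2.60 in IL1RAPL1. The reduced places of RBFOX1 were closer to the gene, with 53.0% ± 2.64 and 55.4% ± 2.07 in library C.

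**Figure D4:**
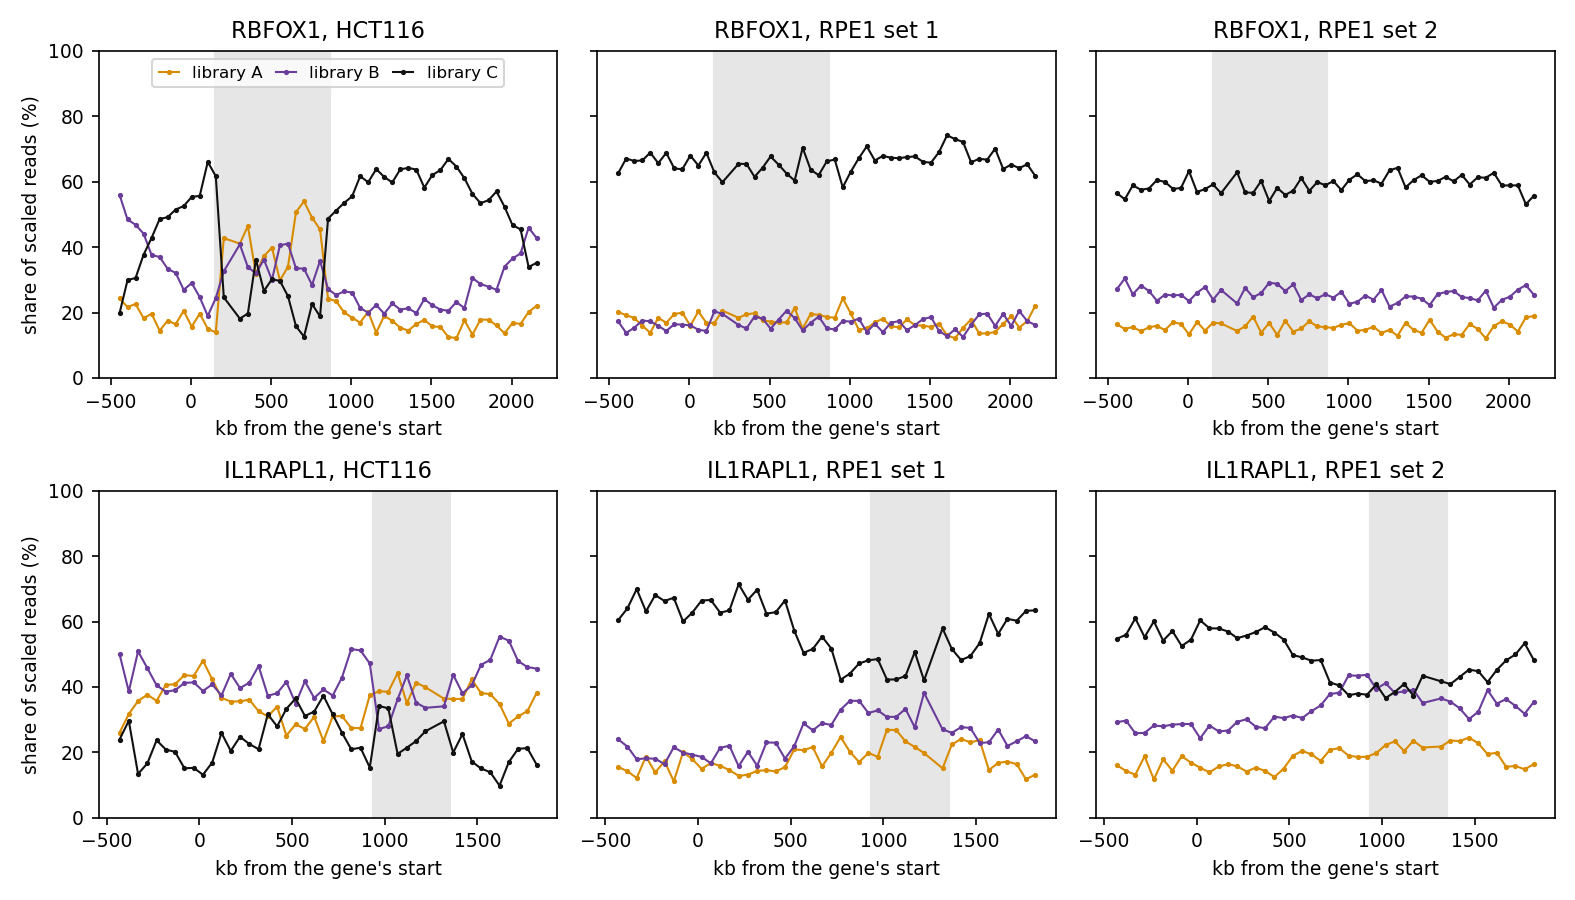
Share of scaled reads in percent (y axis) held by library A (orange), B (purple) and C (black) in windows of 50 kb, by distance from the gene's start in kb (x axis), for HCT116 and both RPE1 sets; the near-empty stretch is shaded. In HCT116, C climbs from 19.7% to 52.5% along the left flank of RBFOX1 and stays at or below 37.3% around IL1RAPL1, while RPE1 set 1 stays at or above 58.3% and 42.2% outside the stretches.

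Windows in which HCT116 lay at least 10 percentage points beyond both RPE1 sets were counted outside the stretches. Over all autosomal and X windows 18.2% had library C below by this much, 16.3% of autosomal windows and 50.6% of X windows. In the RBFOX1 interval 11 of 38 windows (28.9%) did, 7 of 9 in the left flank, 4 of 10 in the right and 0 of 19 in the gene. Library B was above in 11 of 38 windows, all in the flanks, against 8.93% of autosomal windows and 9.58% of all windows. A was above in 0 of 38, against 12.1% of autosomal and 12.9% of all windows. The RBFOX1 count depended on the RPE1 set: against set 1 alone 55.3% of its windows had C below, and against set 2 alone 28.9%.

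Around IL1RAPL1 35 of 36 windows (97.2%) had C below, against 50.6% of X windows. These were 9 of 9 in each flank and 17 of 18 in the gene. A was above in 27 of 36 (75.0%), against 28.8% of X windows, and B in 24 of 36 (66.7%), against 21.1%. The windows of an interval are neighbours in 1 set of libraries and are not replicates.

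The same search over all autosomes and X put these stretches in context. At least 20 kb long, 16 near-empty HCT116 runs were found, with 0.0569% of 2835574 covered bins. The 3 runs in RBFOX1 and IL1RAPL1, of 716, 324 and 79 kb, made up 1119 of the 1614 kb (69.3%). The other 13 came to 495 kb, the longest having 66 kb. Because the genes were chosen for these runs, their rank is a description. The 5 longest were the 3 in these genes, chr6:32517001-32583000 with 66 kb and a level of 0.235, and chr16:78669001-78734000 with 65 kb and 0.104. The level here is relative to the wider surroundings, in which the RBFOX1 run had 0.0963 and the IL1RAPL1 runs 0.181 and 0.203.

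With the lines exchanged, 6 runs with 0.0075% of bins were near-empty in RPE1 against HCT116, none longer than 52 kb. Set 1 against set 2 of RPE1 gave 4 runs of 22 to 29 kb with levels of 0.284 to 0.318, or 0.00356% of bins, and set 2 against set 1 gave 0. No comparison of the RPE1 sets gave a run as long or as low as those of RBFOX1 and IL1RAPL1, which were chosen for their runs. The reference was 1 RPE1 set in these comparisons and both sets summed for HCT116, so they are not alike.

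The 13 HCT116 runs elsewhere kept 0.333 to 3.23 reads per kb, with a median of 1.15, a range that takes in the 0.895 and 0.906 of the RBFOX1 and IL1RAPL1 stretches. Their 696 reads over 495 kb were split 43.2, 33.6 and 23.1% among A, B and C. The C share of single runs went from 0, in a run with 7 reads, to 47.0%, in a run with a level of 0.324. The 17.3 and 19.0% of RBFOX1 and IL1RAPL1 lay within that wide range. Among the 13, the 6 runs with a level below 0.15 kept 0.333 to 1.15 reads per kb, with a median of 0.559. They held 44, 63 and 44 reads of A, B and C, with 29.1% in C, which is more than in RBFOX1 and IL1RAPL1.

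**Figure D5:**
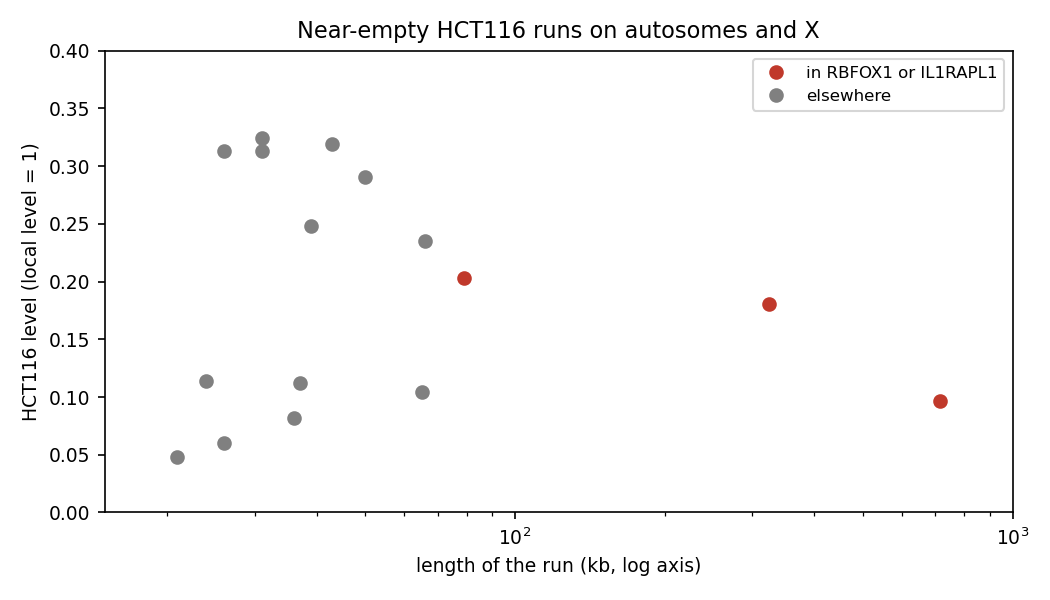
Each near-empty HCT116 run of at least 20 kb on the autosomes and X, by length in kb (x axis, log scale) and HCT116 level relative to its wider surroundings (y axis, local level = 1). The 3 red points in RBFOX1 and IL1RAPL1 are the longest, at 716, 324 and 79 kb, and the 13 grey points elsewhere reach 66 kb.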

How the data were processed

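Nascent DNA of 9 libraries was analysed from the authors' deposited tables of read counts in 1 kb bins, whole numbers not scaled to a common total. The build was hg19 and the tools were bedtools 2.25, SAMtools 1.2 and Bowtie2, per the submitters' processing notes; the table names quoted in the labels contain "nodup", and how duplicates were treated is not given. Read length was 50 bases, per the labels' protocols. The sources used here do not say how reads with several matches were treated, which changes the counts of repeats.

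The labels tie each table to a line and set, and no column to a fraction. A 2-state model called each bin near-empty (0.1 of the surroundings) or at level 1 from a binomial of HCT116 against RPE1 reads, with a cost of 10 nats per change. An edge's support covers positions within 3 nats. Runs parted by at most 5 kb were joined. Over the genome the local level was a running median of 101 windows of 50 kb. Shares used library counts scaled to equal autosomal totals, in windows with at least 30 reads in each set. Level intervals are exact (Clopper-Pearson or Poisson) and percentages of reads have Wilson intervals; PCR reads are not independent molecules, so all cover counting error only.

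No p-value was computed, since HCT116 had 1 set. The named regions are both genes and the 5 longest runs. The genes and lists were chosen with earlier results of these data known; the joining, the 4-level states and the 101 windows were chosen after seeing the data. The segmentation was run on simulated near-empty runs, drawn as Poisson counts from the RPE1 profile. The simulation had no spread beyond counting error, no timing difference between lines and no reduced or raised neighbours. It therefore does not show how well the edges were placed in the real data. Tools were Python 3.11.15, NumPy 2.4.6, pandas 2.3.3, SciPy 1.17.1, Numba 0.67.0 and Matplotlib 3.10.9. Alternatives covered the near-empty level, bin size, cost, flank width, distance threshold, reference set and shortest run.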

Additional observations from a re-analysis of the deposited data

How the results depend on the processing

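Of 179 alternative values, 142 moved by less than the spread used for them and 37 moved more. All are positions, lengths, levels, shares or counts without a sign, so the 0 changes of direction were fixed in advance. Some values could not move, since leaving out the fullest bins removed none in the IL1RAPL1 stretch. The tally is therefore no measure of how firm the results are. A near-empty level of 0.2 put the ends at 6956000 (734 kb) in RBFOX1 and 29964000 (423 kb) in IL1RAPL1. Bins of 2 kb put the RBFOX1 start at 6221001, and bins of 5 kb put it at 6219001 and the end at 6939000 (720 kb), and the IL1RAPL1 end at 29956000 (415 kb); a coarser grid moves edges by construction. Without joining, the longest runs began at 6275001 (663 kb) and 29652001 (306 kb). A near-empty level of 0.05, 3 states and 4 states each put the IL1RAPL1 start at 29634001 (324 kb), as did leaving out RPE1 set 2. Leaving out either RPE1 set gave IL1RAPL1 starts of 29541001 to 29634001, lengths of 324 to 417 kb and levels of 0.169 to 0.224; against all autosomes the level was 0.107. In RBFOX1 it gave ends of 6935000 to 6938000, lengths of 713 to 716 kb, 28.9 to 55.3% of windows with C below and 28.9 to 47.4% with B above.

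With flanks of 250 kb the HCT116 library C share was 50.2% left and 55.5% right of RBFOX1 and 18.6% left of IL1RAPL1. At 5 and 15 points, 52.6 and 18.4% of RBFOX1 windows had C below and 44.7 and 15.8% had B above, and at 15 points 19.4% of IL1RAPL1 windows had B above. Near-empty runs numbered 10 at a cost of 20 nats, 25 from 10 kb and 6 from 50 kb, against 16. Apart from the grid, the causes were not tested. No paired analysis was possible because no result comes from a test and no column could be tied to a numbered sample. With 378 to 641 HCT116 reads in the stretches, their shares have counting errors of 1.81 to 2.60 points, and HCT116 has no replicate set.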
